A study of Mus musculus with 3 samples.

Results

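Collagen genes were examined in ADM (acinar-to-ductal metaplasia), duct and acinar cells of the mouse pancreas. The members were the genes whose symbol has the form Col, a number, a and a number, named through the RefSeq accession of their probes. They numbered 44 of the 21150 named genes on the arrays, and all 44 such symbols of the RefSeq gene table had at least 1 probe. The cells were laser-microdissected from frozen pancreas of 3 wild-type (WT) mice 48 h after caerulein pancreatitis. Caerulein mimics the gut hormone cholecystokinin and in excess injures acinar cells. ADM is the conversion of acinar cells to duct-like cells. The groups were ADM cells, duct cells and acinar cells, with 1 Agilent 1-colour array each, and all groups shared the WT genotype, the pancreatitis and the time point. No untreated pancreas and no isolated stromal cells were among the samples. The strain, sex and age of the mice, the way cells were recognised for dissection and any pooling of mice are not given in the sources used here.

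Collagens are secreted or membrane proteins whose chains wind into a helical trimer. Fibrillar collagens assemble into the banded fibrils of connective tissue, and collagen IV forms the network of the basement membrane on which epithelial cells and vessels rest. In the pancreas, stellate cells and fibroblasts are known as the main source of fibrillar collagens, which accumulate in pancreatitis, whereas epithelial and endothelial cells as well as stromal cells can make collagen IV. A dissected region can include such neighbouring cells.

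Levels are log2 of the processed signal minus the 75th percentile of the array, so a level of 0 is that percentile. Levels of different genes come from different probes. They were not set against each other, except where the scaled signals of a marker list were summed and its brightest gene was named. Such a sum weighs genes by the brightness of their probes. With 1 array per cell type there was no replicate check and no test of any difference, so precision is limited by the number of arrays. The 75th percentile signal was 72.2 intensity units on the ADM array, 95.7 on the duct array and 35.2 on the acinar array. Repeated spots of a probe well above background had a median SD between 0.0896 and 0.122 log2 units over the 3 arrays, which covers spotting and scanning alone. All 3 arrays were on 1 slide and scanned on 1 day. Acinar markers (10 genes) were well above background on every array and had a summed scaled signal, in multiples of the 75th percentile, of 7938 in ADM, 1395 in duct and 24818 in acinar cells. Of 10 duct markers, 9 were well above background in ADM, 9 in duct and 7 in acinar cells, with summed scaled signals of 50.4, 116 and 16.0 in that order.

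Of the 44 collagen genes, 33 were well above background on at least 1 array and 11 on none. By array, 27 of the 44 (61.4%) were well above background in ADM cells, 29 (65.9%) in duct cells and 16 (36.4%) in acinar cells. The same shares over all named genes were 61.3%, 61.3% and 50.9%. On all 3 arrays 15 collagen genes were well above background, in ADM and duct but not in acinar cells 8, in duct cells alone 6, in ADM cells alone 3 and in acinar cells alone 0. Of all 21150 named genes 9539 were well above background on all 3 arrays and 14785 on at least 1. The other overlaps were not counted over all genes, so these numbers are not read as particular to collagens. The members well above background on no array were Col2a1, Col24a1, Col6a4, Col6a5, Col9a3, Col19a1, Col22a1, Col10a1, Col13a1, Col26a1 and Col28a1. Among them are cartilage collagens, such as the fibrillar chain Col2a1 and the hypertrophic cartilage gene Col10a1. A dim probe does not show that a gene is silent.

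**Figure D1:**
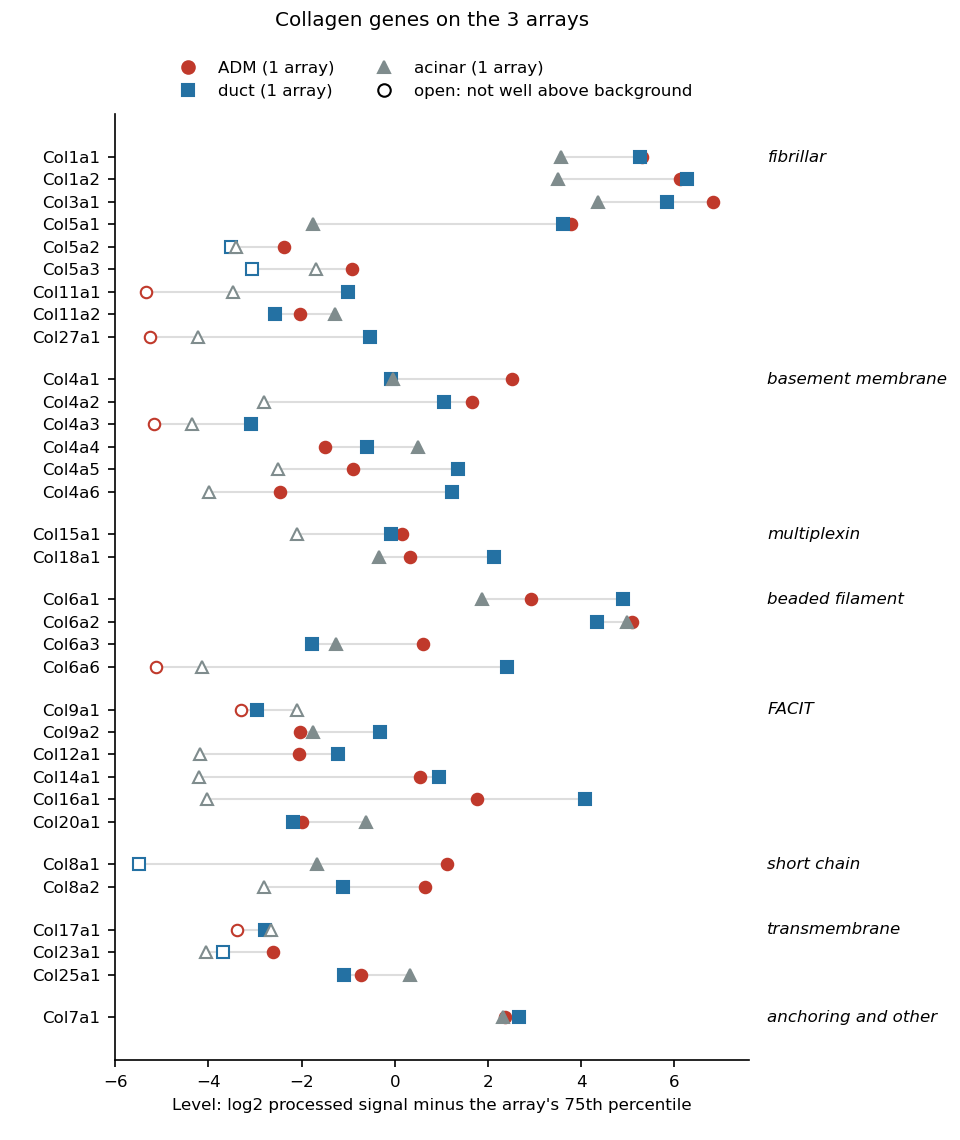
Level of the 33 collagen genes that were well above background on at least 1 array, with genes in rows grouped by class and the level (log2 processed signal minus the 75th percentile of the array) on the horizontal axis. Circles are the ADM array, squares the duct array and triangles the acinar array, and open symbols were not well above background; the ADM and duct symbols of Col1a1, Col1a2 and Col5a1 nearly coincide, to the right of the acinar symbol.

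Comparing a gene between 2 arrays required a signal well above background on 1 or both. A dim side was raised to the weakest signal that still counted as well above background on its array, unless it was itself brighter, and the difference is then written "at least". A gene that entered through its bright side had to differ in that direction, so the following counts describe the compared members and are not evidence of a shift. Between ADM and acinar cells, 27 collagen genes were compared, of which 14 were at least 2-fold higher in ADM, 3 at least 2-fold lower and 10 within 2-fold. Over all 13632 compared genes 21.8% were at least 2-fold higher and 22.0% at least 2-fold lower, 43.8% in all. Normexp background correction adds an offset of 50 intensity units to every signal, which by itself narrows differences between dim signals. With it 10 collagens were higher and 0 lower, against 12.5% and 6.92% over all compared genes. The median difference was 1.06 log2 units over the collagens and 0.00 over all genes. Between duct and acinar cells, 30 were compared, with 16 higher in duct, 5 lower and 9 within 2-fold, against 27.4% higher and 24.6% lower (52.0% in all) over 13826 genes. The medians were 1.24 and 0.00. Between ADM and duct cells, 33 were compared, with 5 higher in ADM, 9 lower and 19 within 2-fold, against 21.6% higher and 24.8% lower (46.4% in all) over 14475 genes. The medians were −0.07 and −0.05. These comparisons share arrays, so they are not independent of each other.

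On the 15 members well above background on all 3 arrays, no value was a bound. Between ADM and acinar cells 7 of them lay 2-fold or more above acinar cells in ADM and 3 below, against 17.7% above and 21.6% below over the 9539 named genes under the same filter. Between duct and acinar cells 7 were higher in duct and 4 lower, against 24.1% and 25.2%. Between ADM and duct cells 2 were higher in ADM, 3 lower and 10 within 2-fold, against 18.0% higher and 21.5% lower. Scaling each array by its median in place of the 75th percentile moved the median of all compared genes to 0.28 for duct minus acinar, 0.05 for ADM minus acinar and −0.20 for ADM minus duct. Genes higher in duct made up 52.7% of those at least 2-fold apart from acinar cells, 64.7% with median scaling and 65.7% with normexp background correction. Genes higher in ADM made up 49.7% of those apart from acinar cells, and 64.4% with normexp.

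Fibrillar collagens had their clearest values in the chains of types I, III and V. Col1a1, which encodes the major chain of type I collagen, had a level of 5.31 in ADM, 5.27 in duct and 3.58 in acinar cells. Its level was thus 3.33-fold higher in ADM than in acinar cells and 3.22-fold higher in duct than in acinar cells, and it differed by 0.05 between ADM and duct. Col1a2, the partner chain in the type I trimer, had levels of 6.12, 6.28 and 3.51 in ADM, duct and acinar cells. It was 6.09-fold higher in ADM and 6.82-fold higher in duct than in acinar cells. Both type I chains were therefore lower on the acinar array than on the ADM and duct arrays, and near equal between ADM and duct. On the acinar array they were still well above background. In bulk material of this kind, fewer collagen-producing cells and less collagen RNA per cell cannot be told apart.

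Col3a1, the chain of the fine reticular fibrils, had levels of 6.83 in ADM, 5.84 in duct and 4.36 in acinar cells. It was 5.52-fold higher in ADM and 2.79-fold higher in duct than in acinar cells, and its difference between ADM and duct, 0.98 log2 units, lay just inside 2-fold. Col5a1, a chain of the type V collagen that starts type I fibrils and limits their width, showed the widest acinar gap of the class. Its level was 3.78 in ADM, 3.62 in duct and −1.75 in acinar cells, which is 46.3-fold higher in ADM and 41.3-fold higher in duct than in acinar cells. Col5a1 differed by 0.16 between ADM and duct. These 4 genes were well above background on all 3 arrays, each with 1 probe. Each stayed at least 2-fold higher in ADM and in duct than in acinar cells with normexp and with quantile normalization. Median scaling and the percentile over detected probes raised all differences from acinar cells by a constant, so they could not bring these genes below 2-fold.

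The other type V chains were detected in ADM cells alone. Col5a2 had a level of −2.38 in ADM and was not well above background in duct (−3.52) or acinar cells (−3.40). The difference was at least 0.89 for ADM minus duct, and against acinar cells the bound was 0. Col5a3 had a level of −0.93 in ADM and was dim in duct (−3.06) and acinar cells (−1.69), with a difference of at least 2.14 for ADM minus duct and at least 0.76 for ADM minus acinar. With normexp the ADM minus duct difference of Col5a3 was at least 0.66, a bound below 2-fold.

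Minor fibrillar chains known mainly from cartilage and bone behaved otherwise. Col11a1 was well above background in duct cells alone, with a level of −0.99, against dim signals of −5.34 in ADM and −3.48 in acinar cells. Col27a1 likewise had a level of −0.53 in duct, against dim signals of −5.26 in ADM and −4.21 in acinar cells. Col11a1 was lower in ADM than in duct by at least 4.46-fold and Col27a1 by at least 6.13-fold. Above the acinar signal the duct level stood by at least 2.07-fold (Col11a1) and 2.85-fold (Col27a1). With normexp all 4 values were still bounds and fell below 2-fold, so larger gaps remain possible. Col11a2 had levels of −2.04 in ADM, −2.57 in duct and −1.28 in acinar cells, so it was 2.45-fold lower in duct than in acinar cells and within 2-fold in ADM. That duct difference was −0.91 with median scaling and −0.66 with normexp.

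The promoters of Col1a2, Col3a1 and Col5a1 are shown because these genes were higher together in ADM and duct than in acinar cells. Each is the 250 bases before the start used in a RefSeq promoter table (build GRCm38.p6). That start is the outer limit of the gene in the RefSeq gene table for Col1a2 and Col3a1 and lies 44 bases inside it for Col5a1. The bases are written 5′ to 3′ on the strand of the gene, with capitals for a CCAAT box (CCAAT), a GC box (GGGCGG) or a TATA box (TATAAA) on either strand.
Col1a2 (chr6:4505368-4505617, plus strand): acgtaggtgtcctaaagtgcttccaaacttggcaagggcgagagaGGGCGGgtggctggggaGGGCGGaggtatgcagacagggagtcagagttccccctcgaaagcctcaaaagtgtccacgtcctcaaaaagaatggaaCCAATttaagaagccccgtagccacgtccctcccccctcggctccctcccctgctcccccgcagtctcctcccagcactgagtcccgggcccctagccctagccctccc
Col3a1 (chr1:45311288-45311537, plus strand): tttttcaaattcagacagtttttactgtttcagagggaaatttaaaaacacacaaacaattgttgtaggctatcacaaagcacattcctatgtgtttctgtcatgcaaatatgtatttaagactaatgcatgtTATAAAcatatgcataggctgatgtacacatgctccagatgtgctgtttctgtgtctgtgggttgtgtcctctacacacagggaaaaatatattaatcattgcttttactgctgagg
Col5a1 (chr2:27886175-27886424, plus strand): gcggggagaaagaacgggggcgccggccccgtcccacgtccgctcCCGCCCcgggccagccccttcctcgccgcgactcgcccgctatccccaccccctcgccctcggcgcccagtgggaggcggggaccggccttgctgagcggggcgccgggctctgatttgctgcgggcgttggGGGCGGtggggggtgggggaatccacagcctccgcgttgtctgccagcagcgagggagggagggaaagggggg

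Windows were held for 35 of the 44 collagen genes (38 windows), and Col1a1 was not among them. The Col1a2 window holds 1 CCAAT and 2 GGGCGG matches, the Col5a1 window 2 GGGCGG matches and the Col3a1 window 1 TATAAA match 117 to 112 bases before the start, with no overlapping matches. Thus these 3 windows have no motif in common among those searched. Over all 32851 windows 33.8% hold CCAAT, 32.7% GGGCGG and 12.4% TATAAA, and over the 38 collagen windows 34.2%, 57.9% and 13.2%. A match is a description of the letters, not a binding site.

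Collagen IV did not move as a block. Col4a1 and Col4a2 encode the chains that form the common basement membrane trimer, and the genes lie head to head on chromosome 8. Col4a1 had a level of 2.52 in ADM, −0.09 in duct and −0.03 in acinar cells. Its probe was spotted 10 times on each array, and the levels were 2.52 ± 0.0642 in ADM, −0.09 ± 0.0945 in duct and −0.03 ± 0.160 in acinar cells (SD over 10 spots of 1 array, spotting error alone). The ADM spots ranged from 2.44 to 2.64, the duct spots from −0.26 to 0.09 and the acinar spots from −0.30 to 0.17. The ADM spots lay above all spots of both other arrays, and the duct and acinar spots overlapped. Col4a1 was thus 5.85-fold higher in ADM than in acinar cells and 6.07-fold higher in ADM than in duct cells, with a difference of −0.05 between duct and acinar cells.

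Its partner Col4a2 followed another order. Its level was 1.66 in ADM and 1.05 in duct, and its signal of −2.80 in acinar cells was not well above background. Over its acinar signal Col4a2 stood at least 13.0-fold higher in ADM cells and 8.55-fold higher in duct cells, and it differed by 0.60 between ADM and duct. The chains of this trimer therefore shared a high value in ADM cells. They parted in duct cells, where Col4a2 was near its ADM level and Col4a1 near its acinar level. Each gene had 1 probe, so a probe effect in this gap was not tested.

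Col4a5 and Col4a6, which encode chains of a basement membrane trimer of smooth muscle and some epithelia, also lie head to head, on chromosome X. Col4a5 had a level of −0.89 in ADM and 1.35 in duct, with a dim signal of −2.51 in acinar cells. It was 4.74-fold lower in ADM than in duct. Its acinar signal was exceeded by at least 10.5-fold in duct and by at least 1.15 log2 units in ADM, the ADM bound being 0.21 with normexp. Col4a6 had a level of −2.47 in ADM and 1.24 in duct and was dim in acinar cells (−3.98), which put it 13.0-fold lower in ADM than in duct. The second Col4a6 probe gave the opposite order, with levels of −1.97 in ADM, −2.45 in duct and −0.88 in acinar cells. The direction of Col4a6 is therefore not settled.

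Col4a3 and Col4a4, partners of Col4a5 in the trimer known from the kidney glomerulus, were weak or unsettled. Col4a3 was well above background in duct alone, at a level of −3.08, against dim signals of −5.18 in ADM and −4.35 in acinar cells. Col4a4 had levels of −1.49 in ADM, −0.59 in duct and 0.49 in acinar cells by its brightest probe, and its ADM minus acinar difference of −1.98 was −0.77 with normexp. Its other 2 probes were well above background in duct alone, at levels of 0.85 and −2.44. All 3 probes were lower in ADM than in duct, with −0.71 the smallest difference. For duct minus acinar they ranged from −1.08 to 2.90, so that direction is not settled.

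The collagen IV pairs are shown because partners that lie head to head did (Col4a5 and Col4a6, by the brightest probe) or did not (Col4a1 and Col4a2) share an order over the arrays. For Col4a1 and Col4a2, whose start regions run into each other, 30 bases around the CCAAT match are given, and for Col4a5 and Col4a6, the 250 bases before the start (RefSeq promoter table, GRCm38.p6, capitals as above). The start in that table is the outer limit of the gene for Col4a2, and lies 63 bases inside it for Col4a1, 49 for Col4a5 and 19 for Col4a6.
Col4a1 (chr8:11312954-11312983, minus strand): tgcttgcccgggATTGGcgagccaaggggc
Col4a2 (chr8:11312761-11312790, plus strand): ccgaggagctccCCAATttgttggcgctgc
Col4a5 (chrX:141475169-141475418, plus strand): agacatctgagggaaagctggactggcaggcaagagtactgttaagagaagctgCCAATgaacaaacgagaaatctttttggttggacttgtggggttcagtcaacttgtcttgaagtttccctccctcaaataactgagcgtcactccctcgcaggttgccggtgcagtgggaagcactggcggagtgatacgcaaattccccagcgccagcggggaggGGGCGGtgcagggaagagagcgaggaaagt
Col4a6 (chrX:141474077-141474326, minus strand): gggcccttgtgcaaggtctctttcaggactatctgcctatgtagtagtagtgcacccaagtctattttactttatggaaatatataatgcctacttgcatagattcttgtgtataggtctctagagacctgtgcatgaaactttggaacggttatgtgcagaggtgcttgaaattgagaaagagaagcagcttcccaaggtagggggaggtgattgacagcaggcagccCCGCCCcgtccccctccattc

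The Col4a2 match lies 32 to 28 bases before its start and the Col4a1 match, on the opposite strand, 145 to 141 bases before its start, both counted from the starts of the promoter table. The Col4a5 window holds 1 CCAAT and 1 GGGCGG match, and the Col4a6 window holds 1 GGGCGG match on the opposite strand. Of the 5 collagen IV windows 3 hold CCAAT and 3 GGGCGG, and of the 8 fibrillar windows 3 hold CCAAT and 6 GGGCGG.

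**Figure D2:**
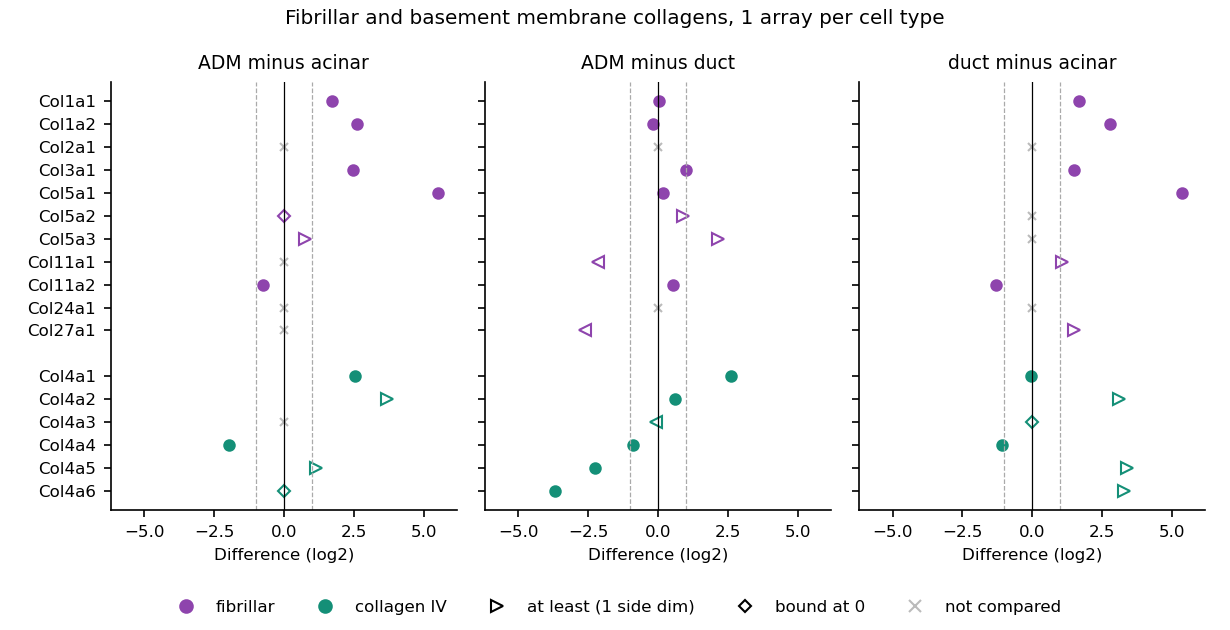
Difference in level (log2, horizontal axis) of each fibrillar collagen and each collagen IV gene for ADM minus acinar, ADM minus duct and duct minus acinar, with dashed lines at 2-fold. Filled circles were measured on both arrays, open triangles are bounds that point away from 0, diamonds are bounds at 0 and crosses mark genes not compared; Col1a1, Col1a2, Col3a1 and Col5a1 lie right of the 2-fold line in both comparisons with acinar cells and between the lines for ADM minus duct, where collagen IV spreads from −3.71 to 2.60.

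Set side by side, the fibrillar class had a median difference of 1.74 for ADM minus acinar (7 of 11 genes compared, with 4 higher and 0 lower) and collagen IV one of 1.15 (5 of 6 compared, with 3 higher and 1 lower, Col4a4). For duct minus acinar the medians were 1.51 for fibrillar collagens (7 compared, with 6 higher and 1 lower) and 1.55 for collagen IV (6 compared, with 3 higher and 1 lower). For ADM minus duct they were 0.16 (9 compared, with 1 higher and 2 lower) and −0.48 (6 compared, with 1 higher and 2 lower). The fibrillar median thus exceeded the collagen IV median by 0.58 log2 units for ADM minus acinar and by 0.65 for ADM minus duct, and lay 0.04 below it for duct minus acinar. For ADM minus acinar 2 fibrillar and 3 collagen IV values were bounds. For duct minus acinar 2 and 4 were, and for ADM minus duct 4 and 1. The collagen IV median for ADM minus acinar was the bound of Col4a5. For duct minus acinar the fibrillar median was the bound of Col27a1, and that of collagen IV lay between bounds. The medians and gaps thus depend in part on the weakest signal that counted on each array. The difference between the classes has no test. Over all compared genes 21.8% were higher and 22.0% lower for ADM minus acinar. The shares were 27.4% and 24.6% for duct minus acinar and 21.6% and 24.8% for ADM minus duct. Under the alternatives the fibrillar median ranged from 0.76 to 2.46 for ADM minus acinar and from 1.48 to 2.23 for duct minus acinar, always above 0. The collagen IV median ranged from −1.09 to 1.57 and from −0.57 to 2.56 for the same comparisons. For ADM minus acinar it was below 0 only with the second-brightest probe, which left 1 gene. For duct minus acinar it was below 0 with the filters for signal on both or all 3 arrays, which left 2 genes. It was also below 0, at −0.024, with quantile normalization, where Col4a6 was represented by its other probe. No fibrillar gene had more than 1 probe, so the probe alternatives could not move the fibrillar median. The steadiness of the 2 classes therefore cannot be compared on probe choice. For ADM minus duct the fibrillar median ranged from 0.0071 to 0.53 and the collagen IV median from −1.76 to 0.85. With members well above background on all 3 arrays collagen IV (Col4a1 and Col4a4) lay above the fibrillar class for ADM minus duct, at 0.85 against 0.16.

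Collagens of the basement membrane zone outside type IV divided. Col15a1, which links basement membranes to fibrils, had levels of 0.16 in ADM and −0.07 in duct and was dim in acinar cells (−2.10), so it was at least 2.21 log2 units higher in ADM and at least 1.97 in duct. With normexp those bounds were 0.58 and 0.37, and with the mean of its 3 probes 1.63 and 0.44. Col18a1, the source of endostatin, had levels of 0.32 in ADM, 2.12 in duct and −0.35 in acinar cells. It was 3.49-fold lower in ADM than in duct and 5.53-fold higher in duct than in acinar cells, and its second probe had the same order with differences of −0.62 and 1.17. Col7a1, which forms the anchoring fibrils of stratified epithelia, had levels of 2.37, 2.66 and 2.33 in ADM, duct and acinar cells and was within 2-fold in every comparison.

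Collagen VI forms beaded filaments near basement membranes from the chains of Col6a1, Col6a2 and Col6a3. Col6a1 had levels of 2.93 in ADM, 4.90 in duct and 1.87 in acinar cells, and was 3.91-fold lower in ADM than in duct and 2.09-fold higher in ADM than in acinar cells. Col6a2, its neighbour in the genome, had levels of 5.08, 4.33 and 4.98 in ADM, duct and acinar cells and stayed within 2-fold in every comparison. Col6a3 had levels of 0.61 in ADM, −1.77 in duct and −1.26 in acinar cells, so it was 5.20-fold higher in ADM than in duct and 3.66-fold higher in ADM than in acinar cells. With normexp the difference from acinar cells was 0.61 log2 units. The chains of 1 trimer thus had their highest level on different arrays, Col6a1 in duct and Col6a3 in ADM. Col6a6, an alternative to the Col6a3 chain, was well above background in duct alone at a level of 2.40, against dim signals of −5.13 in ADM and −4.14 in acinar cells. The ADM signal was lower than the duct signal by at least 46.9-fold, and the duct signal was above the acinar one by at least 21.8-fold. Its second probe was well above background on no array.

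FACIT collagens sit on the surface of fibrils and do not form fibrils themselves. Col16a1 had levels of 1.76 in ADM and 4.09 in duct and was dim in acinar cells (−4.04), so it was 5.03-fold lower in ADM than in duct and above its acinar signal in duct by at least 70.2-fold. Of its other probes, 1 had the same order (−0.03 in ADM, 2.68 in duct and −1.16 in acinar cells) and 1 was near flat (−2.31, −2.46 and −2.34). Col14a1, which binds type I fibrils, had levels of 0.55 in ADM and 0.95 in duct and was dim in acinar cells (−4.21), at least 2.59 and 2.99 log2 units higher. Its second probe was well above background on no array. With the mean of the probes these bounds were 0.11 and 0.21, the acinar side being raised as described above. With normexp the ADM bound was 0.93. Col12a1, a relative that also binds type I fibrils, had levels of −2.06 in ADM and −1.21 in duct and a dim signal of −4.18 in acinar cells, with a bound of 0 for ADM and at least 0.83 for duct.

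The remaining FACIT members had weak signals. Col9a2, a chain of cartilage type IX collagen, had levels of −2.04 in ADM, −0.32 in duct and −1.76 in acinar cells, and was 3.29-fold lower in ADM than in duct and 2.71-fold higher in duct than in acinar cells. With normexp both lay inside 2-fold. Col9a1 was well above background in duct alone (−2.96). Col20a1 had levels of −1.98, −2.18 and −0.62 in ADM, duct and acinar cells, 2.58-fold lower in ADM and 2.97-fold lower in duct than in acinar cells, and inside 2-fold with normexp. Its second probe was well above background in duct alone (−2.58). With the mean of the probes the differences from acinar cells were −0.51 for ADM and −0.38 for duct.

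Network-forming short-chain collagens, known from vessel walls and the cornea, were highest in ADM cells. Col8a1 had a level of 1.12 in ADM and −1.67 in acinar cells and was dim in duct cells (−5.50). Its ADM level was 6.93 times the acinar one and exceeded the duct signal by at least 21.0-fold. Col8a2 had levels of 0.66 in ADM and −1.10 in duct and a dim signal of −2.80 in acinar cells, so it was 3.39-fold higher in ADM than in duct and exceeded its acinar signal in ADM by at least 6.50-fold. The second Col8a2 probe was well above background on no array. With the mean of the probes the difference was 0.99 for ADM minus duct, and the bound for ADM minus acinar was 0.00.

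Among transmembrane collagens, Col25a1 had levels of −0.72 in ADM, −1.09 in duct and 0.32 in acinar cells, 2.06-fold lower in ADM and 2.67-fold lower in duct than in acinar cells. The ADM gap lay inside 2-fold with median scaling (−0.81) and with normexp (−0.42), and the duct gap with normexp (−0.69) and with the mean of the probes (−0.78). Col17a1, a hemidesmosome component of epithelia, was well above background in duct alone (−2.79), and Col23a1 in ADM alone (−2.62). Neither passed 2-fold in any comparison.

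Members were also grouped by their order over the arrays, by the brightest probe and with 2-fold or more as the limit. Of the 33 detected members 4 exceeded both other cell types in ADM (Col4a1, Col6a3, Col8a1 and Col8a2), an order shown by 8.02% of the 14785 named genes well above background on at least 1 array. In duct cells 9 were higher than in both others (Col4a5, Col4a6, Col6a1, Col6a6, Col9a2, Col11a1, Col16a1, Col18a1 and Col27a1), against 15.0% of all such genes, and the second Col4a6 probe does not give this order. A further 7 were higher in ADM and in duct than in acinar cells and within 2-fold between ADM and duct (Col1a1, Col1a2, Col3a1, Col4a2, Col5a1, Col14a1 and Col15a1), against 7.20%. In acinar cells 3 were higher than in both others (Col4a4, Col20a1 and Col25a1), against 12.5%. The other Col4a4 probes and the second Col20a1 probe do not give this order, and the other Col25a1 probes were well above background on no array.

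**Figure D3:**
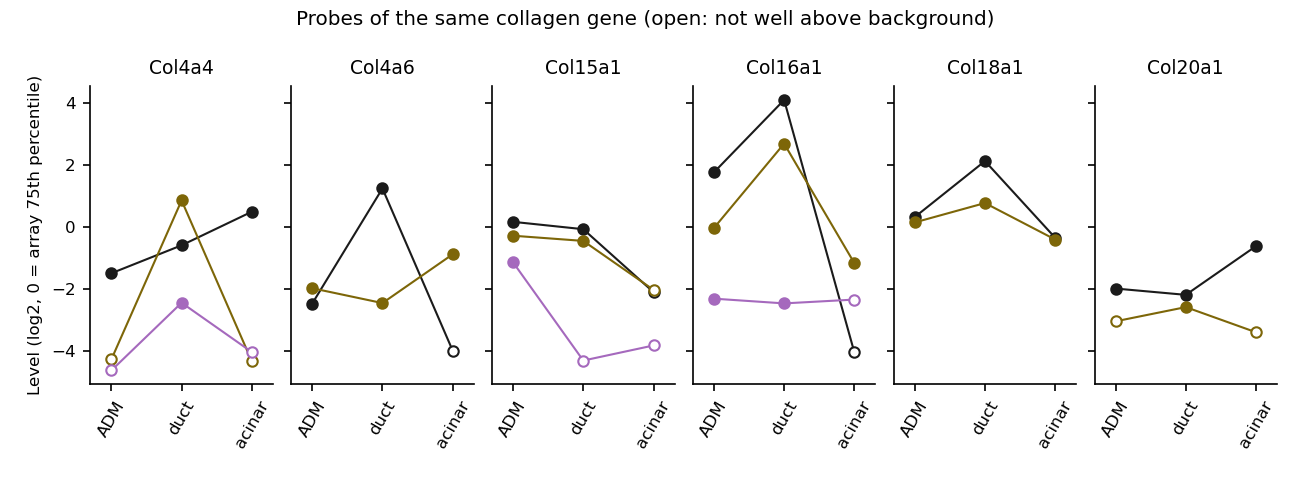
Level (log2, vertical axis) on the ADM, duct and acinar arrays for each probe of the 6 collagen genes that had at least 2 probes well above background on some array. Each line is 1 probe and open symbols were not well above background; the probes of Col18a1 share 1 order, whereas those of Col4a4 and Col4a6 cross.

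Of the 44 members 14 had more than 1 probe and 30 had 1. Where at least 2 probes of a member could be compared, they pointed opposite ways, each by 2-fold or more, in 0 of 4 members for ADM minus acinar, 0 of 6 for ADM minus duct and 2 of 6 for duct minus acinar (Col4a4 and Col4a6). Opposite signs of any size occurred in 0 of 4, 3 of 6 (Col4a6, Col16a1 and Col20a1) and 2 of 6 members in that order.

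Genes that make, shape or bind collagen were examined next. Their counts, and those of the cell type lists below, stand beside the shares over all compared genes. Over all genes 21.8% were higher and 22.0% lower for ADM minus acinar. For duct minus acinar the shares were 27.4% and 24.6%, and for ADM minus duct 21.6% and 24.8%. Proteoglycans and glycoproteins that bind fibrils were mostly higher with the fibrillar chains, with 10 of 14 compared genes at least 2-fold higher and 0 lower in ADM than in acinar cells (median 2.38), and 10 of 14 higher and 3 lower in duct than in acinar cells (median 1.75). Thbs1, a matrix glycoprotein, was at least 5.17 log2 units higher in ADM than in acinar cells (3.12 against a dim −3.43). Tgfbi, which binds collagen and integrins, was at least 4.83 higher (2.79 against a dim −2.42). Sparc, a collagen-binding glycoprotein, had levels of 4.50 in ADM, 4.41 in duct and 1.82 in acinar cells. Postn, a matricellular protein of fibroblasts, had levels of 2.04 in ADM and −1.82 in acinar cells and was dim in duct (−4.87).

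Enzymes of procollagen cleavage and crosslinking included 4 of 12 genes higher and 1 lower in ADM than in acinar cells (median 0.75), and 3 of 10 higher and 1 lower in duct than in acinar cells (median 0.12). Bmp1, which removes the C-terminal propeptide, had levels of 3.84 in ADM, 3.56 in duct and 1.43 in acinar cells. Adamts2, which removes the N-terminal propeptide, had levels of 1.81 in ADM, 3.07 in duct and −0.33 in acinar cells. The lysyl oxidases that crosslink fibrils parted. Lox had levels of 2.46 in ADM and 0.72 in acinar cells and was dim in duct (−4.86), whereas Loxl1 had levels of 1.24 in ADM and 2.61 in duct and was dim in acinar cells (−2.59). The probes of Loxl1 opposed each other for ADM minus duct, as did those of Mia3, Mrc2 and Plvap in the export, receptor and endothelial lists. Probes of Mia3, Mrc2 and the macrophage marker Adgre1 did so for duct minus acinar.

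Prolyl and lysyl modification enzymes had no common direction. In ADM 3 of 14 were higher and 4 lower than in acinar cells (median 0.03). These shares, 21.4% and 28.6%, lie near the 21.8% and 22.0% over all compared genes. In duct 6 of 15 were higher and 4 lower than in acinar cells (median 0.41). P4ha2, a catalytic subunit of prolyl 4-hydroxylase, had levels of 1.11 in ADM and 3.10 in duct and was dim in acinar cells (−2.10). P4hb, its partner subunit and a general disulfide isomerase of secretory cells, went the other way with 3.58 in ADM, 3.52 in duct and 6.15 in acinar cells. The prolyl isomerase Fkbp10 had levels of 1.23, 0.96 and −1.21 in ADM, duct and acinar cells. Plod3, a lysyl hydroxylase, was dim in ADM (−3.96) beside 2.65 in duct and 2.71 in acinar cells, and Plod1 had levels of 3.49 in ADM, −0.93 in duct and 2.87 in acinar cells. In the list of procollagen folding and export 1 of 8 was higher and 4 lower in ADM than in acinar cells (median −1.01), and 2 were higher and 1 lower in duct than in acinar cells (median −0.35). Serpinh1, the collagen chaperone HSP47, was the member higher in ADM, with levels of 3.31 in ADM, 3.90 in duct and 1.72 in acinar cells. The secretory pathway genes Creb3l1 (−1.94), Kdelr2 (−1.51) and Mia2 (−1.16) were among those lower in ADM than in acinar cells.

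Partners of collagen IV in the basement membrane were higher in duct than in acinar cells in 12 of 16 genes and lower in 0 (median 1.83), and higher in ADM than in acinar cells in 9 of 15 and lower in 3 (median 1.13). Between ADM and duct they were lower in ADM in 9 of 16 and higher in 0 (median −1.85), where collagen IV had 2 of 6 lower and 1 higher. The laminin chains Lama5 (−3.58), Lama3 (−2.77) and Lamb1 (−2.51) were lower in ADM than in duct, and Lamb2 was dim in ADM (−3.66) beside −0.12 in duct. Agrn, a heparan sulfate proteoglycan of basement membranes, was 3.99 log2 units higher in duct than in acinar cells. Pxdn, the peroxidase that crosslinks collagen IV, was at least 3.64 log2 units higher in ADM than in acinar cells (1.60 against a dim −4.27) and differed by −0.24 between ADM and duct, an order like that of Col4a2.

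Markers of other cell types that a dissected region could hold were read on the same arrays, and not every list had the direction of the collagens. Fibroblast and stellate cell markers without any collagen (21 genes, of which Postn, Sparc, Dcn, Lum, Fbln1 and Fbln2 are also among the fibril-binding proteins and Mmp2 among the gelatinases) were higher in ADM than in acinar cells in 11 of 17 and lower in 1 (median 1.46), and higher in duct than in acinar cells in 13 of 18 and lower in 3 (median 1.67). Between ADM and duct 3 of 18 were higher in ADM and 6 lower (median −0.38). Of the 21 genes 17 were well above background in ADM, 17 in duct and 14 in acinar cells, and their summed scaled signal was 208 in ADM, 274 in duct and 78.7 in acinar cells. Lrat and Gfap, known from quiescent stellate cells, were dim on all 3 arrays. Thy1, a fibroblast surface marker, was at least 4.86 log2 units higher in ADM and at least 7.19 in duct than in acinar cells. Acta2, the actin of activated stellate cells and smooth muscle, had −1.58 in ADM, 2.29 in duct and 2.04 in acinar cells.

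Of the endothelial markers 5 of 9 lay above and 2 below acinar cells in ADM (median 1.40), with 5 of 10 above and 1 below acinar cells in duct (median 0.94), and between ADM and duct 2 of 11 were higher in ADM and 5 lower (median −0.88). Of the 12, 8 were well above background in ADM, 10 in duct and 5 in acinar cells, and the summed scaled signal was 15.9, 23.4 and 15.8. Without Kdr, a receptor of vascular endothelial growth factor and the brightest of them, it was 7.19 in ADM, 17.6 in duct and 2.37 in acinar cells. Smooth muscle and pericyte markers had 2 of 9 higher and 3 lower in ADM than in acinar cells (median −0.57). In duct 3 of 9 were higher and 2 lower than in acinar cells, and in ADM 1 of 9 was higher and 4 lower than in duct. Their summed scaled signal was 1244 in ADM, 830 in duct and 1826 in acinar cells. Nearly all of that sum was Mcam, an adhesion molecule of pericytes and endothelium, and the other 9 genes summed to 22.2 in ADM, 32.6 in duct and 16.2 in acinar cells. Macrophage markers were higher in ADM than in duct in 10 of 12 and than in acinar cells in 10 of 12, and between duct and acinar cells 2 were higher in duct and 6 lower, with summed scaled signals of 295 in ADM, 71.5 in duct and 79.0 in acinar cells. Nerve and Schwann cell markers had 2 of 6 genes well above background in ADM, 5 in duct and 1 in acinar cells. The part of these cell types in the collagen values was not tested.

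**Figure D4:**
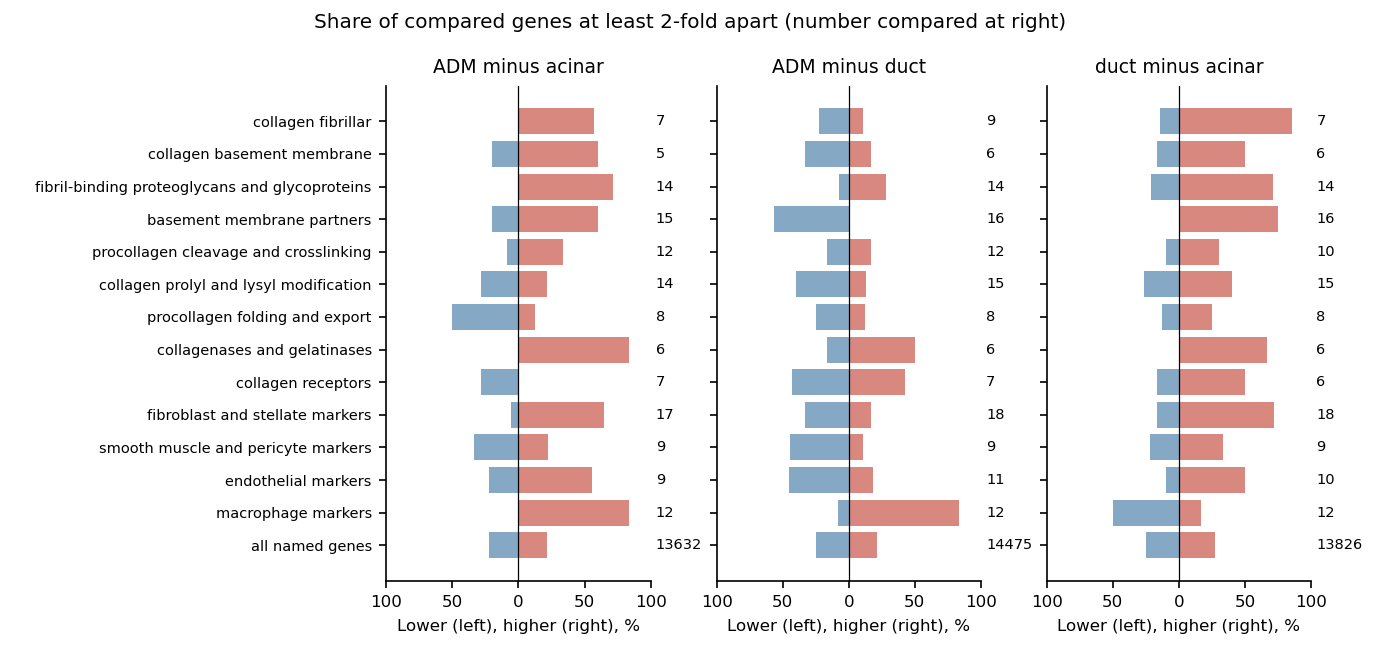
Share of compared genes (percent, horizontal axis) at least 2-fold higher (right of 0) or lower (left of 0) for ADM minus acinar, ADM minus duct and duct minus acinar, by gene list, with the number of compared genes at the right edge. Fibrillar collagens, fibril-binding proteins and fibroblast markers have most of their compared genes on the higher side in both comparisons with acinar cells, and basement membrane partners have 0 genes higher in ADM than in duct.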

How the data were processed

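The 3 arrays held RNA of dissected ADM, duct and acinar cells. Per the labels' protocols, 1.181 ng of RNA was amplified and 2.0 µg of cDNA labelled with Cy3. The deposited processed signal is an intensity on a linear scale that Agilent Feature Extraction 11.5.1.1 corrected within each array, per the file headers, which state no scaling between arrays. The deposited spot and background medians (intensity) went into normexp (offset 50) in limma 3.58.1. The deposited value table holds log2 values, equal to log2 processed signal plus a constant of −6.17 (ADM), −6.58 (duct) and −5.13 (acinar) to within 0.001 at all 32905 matched probes, so its scale, direction and lack of centring per gene are known. Column medians were −0.56, −0.63 and −0.57; how its probes were filtered is unknown here.

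Control spots (3671 of 62976) and outlier spots were left out, which left 55664 probes. Repeated spots were averaged on the log2 scale, and the 75th percentile over these probes was subtracted from each array. Probes were named through a RefSeq table of GRCm38.p6, whereas the array was designed on mm9, so the table served for names and neighbours. Of the probes 28020 were named, for 21150 genes, and the probe with the highest mean stood for a gene. Differences were counted at 2-fold. No test was possible, and a gene's direction rests on its probe. All collagens well above background were named, and up to 4 genes with the largest difference from each other list and comparison could be named; further genes named from these lists were chosen after their values were seen. The members and lists were chosen with earlier results of these data known. The counting was tested on simulated data. Alternatives covered background, scaling, probe choice, filter, class membership and the deposited value table.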

Additional observations from a re-analysis of the deposited data

How the results depend on the processing

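No paired analysis was possible because each group has 1 array and the labels give no replicate numbers, and no array could be left out. Of 52 differences of collagen genes at least 2-fold apart, the direction held in all 52 with normexp, median scaling, the percentile taken over detected probes, no filter and the deposited value table, and 2-fold held in 32, 49, 51, 52 and 52 of them. The last 2 settings were no independent check. Dropping the filter can only keep or widen a called difference. The deposited values are the same signals minus nearly the same constants. Median scaling and the percentile over detected probes could not reverse a direction either. Each shifts all values of a comparison by 1 constant of less than 2-fold, so only their 2-fold counts could change. With quantile normalization Col4a6 was represented by its other probe and turned to 0.33 for ADM minus duct and −1.42 for duct minus acinar. With the second-brightest probe (11 differences left) Col4a6 turned to 0.48 and −1.57 for the same comparisons and Col4a4 to 2.90 for duct minus acinar; with the mean of the probes, Col4a4 turned to 1.89.

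Counts are of collagen genes at least 2-fold higher or lower. With normexp 0 were lower in ADM and 0 lower in duct than in acinar cells, against 6.92% and 10.9% over all compared genes. The normexp offset of 50 is larger than the 75th percentile of processed signal on the acinar array, 35.2. Differences of dim genes therefore shrink in this setting whatever the gene. With median scaling 3 were lower in duct than in acinar cells (18.6% over all genes). With the mean of the probes 1 was lower in ADM and 2 lower in duct than in acinar cells (21.7% and 24.8% over all genes). With no filter, where all 44 were compared on their own signals, 9 were higher in ADM than in duct, 15 lower in ADM than in acinar and 16 lower in duct than in acinar cells. Over all genes without the filter the same shares were 20.7%, 37.7% and 41.7%. The acinar array, dimmer before scaling, has a higher floor after it. With the second-brightest probe, which leaves 4 to 6 members, 2 were higher and 1 lower for ADM against acinar, 0 higher and 2 lower for ADM against duct, and 4 higher and 1 lower for duct against acinar cells. Over all genes these shares were 22.9% and 24.6%, 29.1% and 24.2%, and 24.5% and 29.5%. With members well above background on all 3 arrays, 7 were higher in ADM than in acinar, 2 higher and 3 lower in ADM than in duct, and 7 higher in duct than in acinar cells. With members well above background on both arrays compared, an alternative chosen after seeing the data, 8, 3 and 7 were higher for ADM against acinar, ADM against duct and duct against acinar cells. Under that filter 17.3%, 18.1% and 23.8% of all genes were higher.

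Median differences of fibrillar collagens for ADM minus acinar, ADM minus duct and duct minus acinar were 1.96, 0.0071 and 1.90 with median scaling, and 2.10, 0.53 and 2.23 over the soft-tissue chains. For ADM minus acinar they were 0.76 with no filter, 2.15 with normexp and 2.46 with either stricter filter. For duct minus acinar they were 2.08 with normexp, 1.91 with quantile normalization and 1.69 with either stricter filter. Collagen IV medians for ADM minus acinar, ADM minus duct and duct minus acinar were 1.38, −0.64 and 1.91 with median scaling, 1.57, −1.50 and 2.56 with no filter, and 0.21, −0.13 and 0.62 with normexp. They were −1.09 (1 gene), −1.76 and 0.66 (2 genes each) with the second-brightest probe, which gave no fibrillar value because no fibrillar gene had more than 1 probe, and 0.91, −0.29 and 1.97 with Col7a1, Col15a1 and Col18a1 added. With members well above background on all 3 arrays (Col4a1 and Col4a4) they were 0.28, 0.85 and −0.57, and with both arrays compared 0.28, −0.90 and −0.57. For ADM minus duct and duct minus acinar they were −0.84 and 1.86 with the mean of the probes and 0.064 and −0.024 with quantile normalization. Other changes came from the values or members each setting uses, and their cause was not tested further. Members dim on the acinar array have bounds there, and the gap to that array's floor limits how large a bound can be.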

Other observations

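Receptors of collagen had no common direction. In ADM 0 of 7 compared genes were at least 2-fold higher than in acinar cells and 2 lower (median 0.00), and in duct 3 of 6 were higher than in acinar cells and 1 lower (median 0.58). Over all compared genes 21.8% were higher and 22.0% lower in ADM than in acinar cells, and 27.4% and 24.6% in duct. Ddr1, an epithelial receptor tyrosine kinase for collagen, had levels of 3.09 in ADM, 4.96 in duct and 3.44 in acinar cells. Itga1, the collagen-binding integrin chain, had −1.94 in ADM, −3.02 in duct and −0.53 in acinar cells. Itga11, an integrin chain known from fibroblasts, had 0.53 in duct and −1.89 in acinar cells and was dim in ADM (−3.24).

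Collagen-degrading proteases and their inhibitors were higher in ADM than in acinar cells in 5 of 6 genes and lower in 0 (median 1.97), and higher in duct than in acinar cells in 4 of 6 and lower in 0 (median 1.20). The shares over all compared genes are those given for the receptors. Of the 5 higher in ADM 3 were the inhibitors Timp1, Timp2 and Timp3. The collagenases Mmp8 and Mmp13 and the gelatinase Mmp9 were well above background on no array and were not compared. Timp3, a matrix-bound inhibitor, had levels of 3.07 in ADM and 1.07 in duct and was dim in acinar cells (−2.69). Mmp2, a gelatinase, had 1.47 in ADM and 2.06 in duct and was dim in acinar cells (−2.47). Timp1, a secreted inhibitor, had 0.31 in ADM, −2.56 in duct and −1.67 in acinar cells.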
